A study of Mus musculus with 12 samples.

Results

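Vdr encodes the vitamin D receptor, and Rxra, Rxrb and Rxrg encode its partners, the retinoid X receptors (RXR). The 4 genes were taken by their symbols from a table of 56691 genes, whatever their values, and are described here over all 12 libraries. The libraries came from MC3T3-E1 cells, a pre-osteoblast line from mouse calvarial bone labelled as wild type. All of them, controls included, had spent 28 days in osteogenic medium with 0.1 µM dexamethasone, 10 mM beta-glycerophosphate (BGP, a phosphate donor) and 50 µg/ml ascorbic acid. From day 27 the control group received nothing further. The other groups received 25-hydroxyvitamin D, written 25(OH)D, for 24 h, either alone, with another 4 mM BGP (25(OH)D + BGP), or with 100 µM of the compound ZK191784 (25(OH)D + ZK191784). The labelled dose of 25(OH)D was 100 µM, a unit that could not be checked here. There were 3 libraries a group, none of them given ZK191784 without 25(OH)D. The labels name no separate cultures, so the spread behind every p-value is that between libraries and may be technical.

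The vitamin D receptor is a nuclear receptor that binds the hormone 1,25-dihydroxyvitamin D tightly and its precursor 25(OH)D weakly. With ligand it pairs with an RXR, and the pair binds response elements in DNA and recruits coactivators in place of corepressors. RXR also pairs with the retinoic acid, thyroid hormone, PPAR and LXR receptors, so that these receptors share 1 pool of partners. In bone-forming cells the receptor is known to act on genes of the matrix, of vitamin D breakdown and of phosphate balance.

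The 3' end libraries held between 3318723 and 5170980 counts each. Levels are given as CPM, TMM-scaled counts relative to library size. They are used to compare a gene between libraries and not 1 gene with another. All 10 osteoblast markers examined passed the filter on low counts. Their summed level was 125185 to 139462 CPM in control, 21396 to 24184 with 25(OH)D, 18028 to 21475 with 25(OH)D + BGP and 63799 to 74724 with 25(OH)D + ZK191784. Most of it came from Sparc, Col1a1, Col1a2 and Ibsp (means of 71819, 27006, 15323 and 13675 CPM in control). Alpl was the only 1 of the 10 with a higher mean with 25(OH)D than in control, at 48.1 against 25.2 CPM. Of the 6 osteocyte markers 5 passed the filter, and their sum was 111 to 150.1 CPM in control against 52.0 to 66.1 with 25(OH)D. Pdpn gave most of it, with means of 99.6 and 54.1 CPM. Of the 5, only Dmp1 had a higher mean with 25(OH)D, at 3.07 against 2.52 CPM. The sum of 6 chondrocyte markers was 100.2 to 244.1 CPM in control and 67.6 to 151.9 with 25(OH)D. Sox9 gave most of it, with means of 121.7 and 108.8 CPM. The sum of 5 myocyte markers was at most 6.27 CPM in any library, with Myog at 0 in all. The sum of 6 adipocyte markers was at most 9.28 CPM in any. In bulk RNA, fewer cells of a type and less RNA per cell cannot be told apart, and what part the fall of the osteoblast sum had in the values below was not tested.

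Vdr was low in every control library and several times higher in every library that had received 25(OH)D. The control libraries had 212, 335 and 260 counts of Vdr, or 50.8, 70.6 and 61.9 CPM. With 25(OH)D there were 1425, 1973 and 1295 counts, or 381.1, 475.6 and 342.0 CPM. The lowest treated library therefore lay far above the highest control library, and the groups did not overlap. The mean went from 61.1 ± 9.91 to 399.6 ± 68.7 CPM (SD, n = 3 each), a 6.54-fold rise with a 95% interval of 5.03 to 8.49. On the log2 scale Vdr rose by 2.71 ± 0.17 (SE), and the quasi-likelihood test of edgeR gave an adjusted p of 9.34e-07. Vdr was the 1 of the 3 tested receptor and partner genes called, where 8.68% of all 14394 genes tested were called, 4.76% as higher and 3.93% as lower. By p it was number 27 of all genes tested, and by size it was number 130 among the 685 genes called higher.

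Rxra, a widely expressed RXR gene, differed between these groups by less than the SE of the log2 difference. Control libraries had 329, 416 and 372 counts of Rxra, or 78.9, 87.7 and 88.5 CPM. Those with 25(OH)D had 332, 431 and 320 counts, or 88.8, 103.9 and 84.5 CPM, and the groups overlapped. The Rxra difference was 1.09-fold with an interval of 0.867 to 1.36 (log2 0.12 ± 0.15, edgeR adjusted p = 0.712). The interval leaves room for a rise of up to 1.36-fold, but not for one of the size seen in Vdr.

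Rxrb, which also has a broad expression, was slightly higher in each 25(OH)D library than in any control. It had 257, 276 and 241 counts in control, or 61.6, 58.2 and 57.3 CPM. With 25(OH)D it had 257, 316 and 255 counts, or 68.7, 76.2 and 67.4 CPM. The Rxrb groups did not overlap, which held for 21.9% of all genes tested in this comparison. The difference of 1.20-fold (0.962 to 1.49; log2 0.26 ± 0.15) did not pass the test (edgeR adjusted p = 0.372).

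Rxrg, the RXR gene known from muscle and parts of the nervous system, was all but undetected. It had 0 counts in 10 of the 12 libraries and 1 count in each of the other 2, 25(OH)D + BGP library 3 and 25(OH)D + ZK191784 library 3. That makes 2 of 52280663 counts. A library at 0 allows a level of up to 3 counts. Over the depths of all 12 libraries, 3 counts are 0.580 to 0.904 CPM. Rxrg did not pass the filter on low counts and was not tested, so 3 of the 4 genes enter the comparisons.

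**Figure D1:**
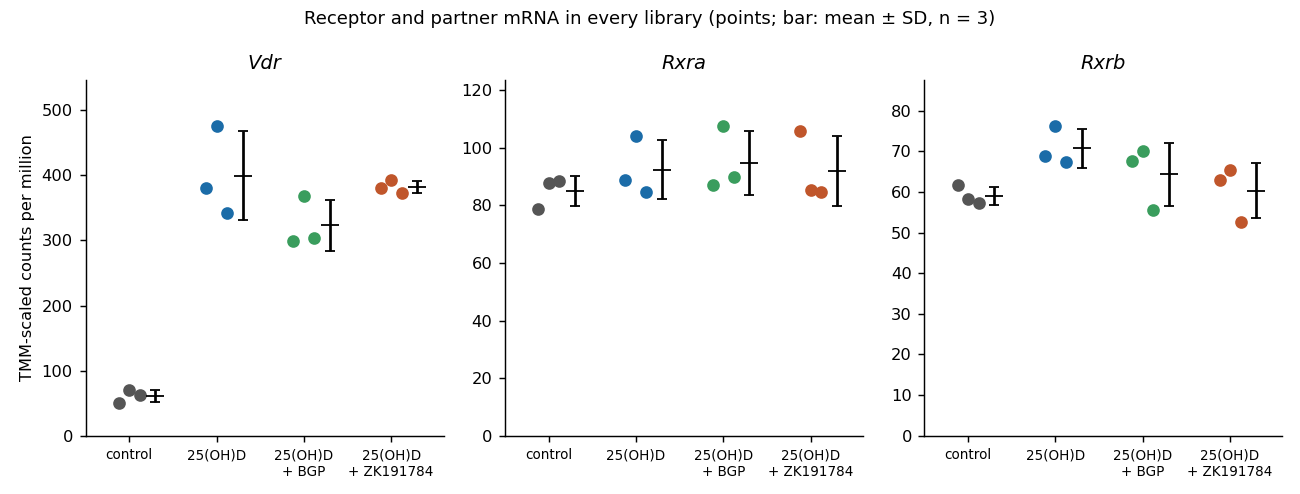
Levels of Vdr, Rxra and Rxrb in TMM-scaled CPM in each of the 12 libraries (points), by group, with the mean ± SD of 3 libraries beside them. Vdr lies between 50.8 and 70.6 in control and between 298.4 and 475.6 in the 9 libraries with 25(OH)D, while the 4 groups of Rxra overlap and those of Rxrb lie between 52.6 and 76.2.

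The promoters of the 3 detected genes at their first listed start are shown because Vdr rose and its partners did not pass the test. Each holds at least 1 of the GC boxes that the factor Sp1 is known to bind. RefSeq sequence on GRCm38.p6, a build other than that of the counts, gave the 120 bases before the first listed start of each gene. They are chr15:97908297-97908416 on the minus strand for Vdr, chr2:27677081-27677200 on the plus strand for Rxra and chr17:34031692-34031811 on the plus strand for Rxrb. They run 5′ to 3′ toward the start, and capitals mark GGGCGG on either strand.
Vdr: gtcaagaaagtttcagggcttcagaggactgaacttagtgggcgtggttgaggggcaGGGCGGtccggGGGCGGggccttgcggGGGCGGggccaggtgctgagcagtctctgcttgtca
Rxra: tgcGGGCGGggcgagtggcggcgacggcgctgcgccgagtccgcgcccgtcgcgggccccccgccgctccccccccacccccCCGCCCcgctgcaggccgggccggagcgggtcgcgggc
Rxrb: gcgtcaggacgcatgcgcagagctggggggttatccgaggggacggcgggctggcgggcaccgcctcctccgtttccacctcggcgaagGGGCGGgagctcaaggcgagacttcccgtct

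The Vdr stretch holds 3 GC boxes, that of Rxra 2 and that of Rxrb 1. Of 32851 mouse promoter stretches of this length 26.5% hold at least 1. The stretches of Vdr, Rxra and Rxrb are 65, 88.3 and 70.8% G or C. In the 250 bases before their second listed start, Rxra has 0 GC boxes and Rxrb has 3. In the longer stretch of 250 bases, searched on both strands, the receptor half-site AGGTCA was not found for Vdr, the first Rxra start, either Rxrb start or the first Rxrg start. It was found 2 times at the second Rxra start and 1 time at the second Rxrg start, and 14.0% of all promoters hold it. The full direct repeat with 3 bases between, known as DR3, was in none of the 7 stretches listed for the 4 genes and in 0.0396% of all promoters. No match says only that these letters are not in this window.

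Adding 4 mM BGP to 25(OH)D left Vdr high. The 25(OH)D + BGP libraries had 1064, 1722 and 1573 counts of Vdr, or 298.4, 368.7 and 303.3 CPM (323.5 ± 39.2, SD, n = 3). They overlapped the libraries with 25(OH)D alone, of which the lowest had 342.0 CPM. In this comparison 6.04% of genes did not overlap between the groups. The Vdr difference was 0.810-fold with an interval of 0.634 to 1.03 (log2 -0.30 ± 0.16, edgeR adjusted p = 1.000). In this comparison 0% of genes were called by edgeR, 0 were called by DESeq2, and 268 genes (1.86% of those tested) had an unadjusted edgeR p under 0.05. Against control, the rise of Vdr with 25(OH)D + BGP was 5.29-fold, with an interval of 4.09 to 6.85 (edgeR adjusted p = 2.86e-06), where 8.25% of genes were called, 3.9% as higher and 4.35% as lower. The Vdr groups did not overlap, as in 21% of genes.

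The partners did not pass the test in either of these comparisons. Rxra had 310, 502 and 466 counts with 25(OH)D + BGP, or 87.0, 107.5 and 89.9 CPM. Rxrb had 241, 327 and 288 counts, or 67.6, 70.0 and 55.5 CPM, so that its lowest library lay below all controls and the other two above them. The differences from 25(OH)D alone were 0.04 ± 0.15 for Rxra and -0.14 ± 0.15 for Rxrb on the log2 scale. Those from control were 0.16 ± 0.15 for Rxra and 0.12 ± 0.15 for Rxrb.

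With ZK191784 the level of Vdr was also that of a 25(OH)D culture. The 25(OH)D + ZK191784 libraries had 1860, 1628 and 1717 counts of Vdr, or 380.8, 392.5 and 373.3 CPM, and lay within the range of the libraries with 25(OH)D alone. Their mean was 382.2 ± 9.65 CPM (SD, n = 3), the smallest spread of Vdr in any group. The difference from 25(OH)D alone was 0.956-fold with an interval of 0.750 to 1.22 (log2 -0.06 ± 0.16, edgeR adjusted p = 0.972), where 3.53% of genes were called, 1.42% as higher and 2.11% as lower. The interval allows a fall to 0.750-fold of the 25(OH)D level, well short of a return to control. Without 25(OH)D library 2, the highest for Vdr, the log2 difference was 0.09.

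Against control, Vdr was 6.25-fold higher with 25(OH)D + ZK191784, with an interval of 4.82 to 8.11 (log2 2.64 ± 0.17, edgeR adjusted p = 1.08e-05). Only 0.723% of genes were called in that comparison, 73 higher (0.507%) and 31 lower (0.215%), and 11.8% did not overlap between the groups. These 104 genes became 34 to 119 when 1 library was left out. Vdr was number 3 by p among all genes tested and number 15 by size among the 73. The 3 comparisons with control share the control libraries and are therefore not independent of each other.

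The partners with ZK191784 showed no call either. Rxra had 517, 354 and 389 counts, or 105.8, 85.3 and 84.6 CPM, and overlapped every other group. Rxrb had 307, 271 and 242 counts, or 62.8, 65.3 and 52.6 CPM, all below the libraries with 25(OH)D alone, a separation found in 17.6% of genes. The log2 difference from 25(OH)D alone was -0.23 ± 0.15 for Rxrb (edgeR adjusted p = 0.675) and -0.01 ± 0.15 for Rxra. Between ZK191784 and BGP, both on top of 25(OH)D, Vdr was 1.18-fold higher with ZK191784 (0.926 to 1.51; log2 0.24 ± 0.16). These Vdr groups did not overlap, as in 17.1% of genes, and the difference did not pass the test (edgeR adjusted p = 0.788, where 3.25% of genes were called, 1.6% as higher and 1.65% as lower).

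**Figure D2:**
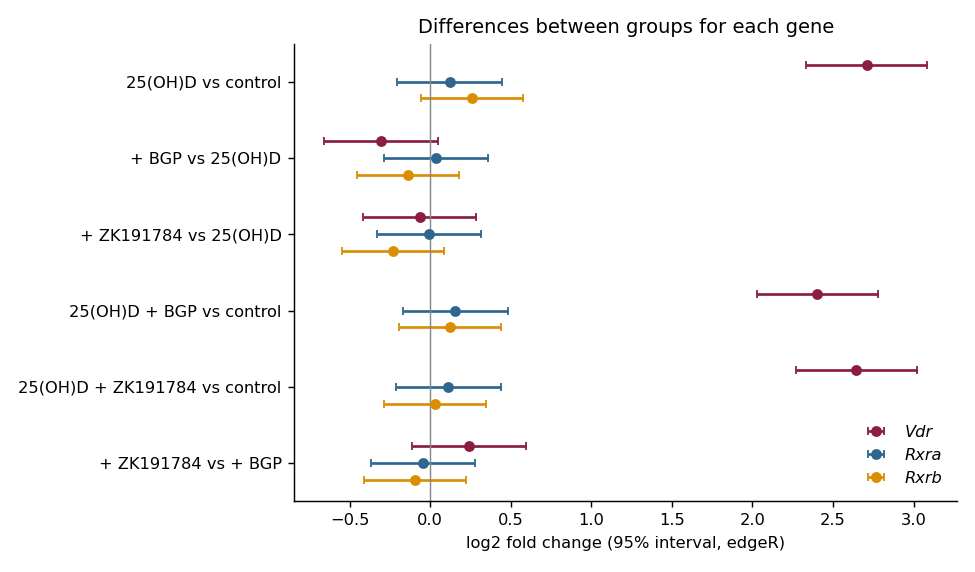
Log2 fold change with its 95% interval (edgeR) for Vdr, Rxra and Rxrb in the 6 comparisons between groups of 3 libraries. Vdr lies at 2.71, 2.40 and 2.64 in the 3 comparisons with control, and each of the other 15 intervals includes 0.

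In order of mean level, Vdr ran from control (61.1 CPM) through 25(OH)D + BGP (323.5) and 25(OH)D + ZK191784 (382.2) to 25(OH)D alone (399.6), and only the step from control to the next group passed the test. For Rxra the order was control (85.0 ± 5.32), 25(OH)D + ZK191784 (91.9 ± 12.1), 25(OH)D (92.4 ± 10.2) and 25(OH)D + BGP (94.8 ± 11.1). For Rxrb it was control (59.0 ± 2.28), 25(OH)D + ZK191784 (60.3 ± 6.74), 25(OH)D + BGP (64.4 ± 7.75) and 25(OH)D (70.8 ± 4.75), and no pair of groups passed for either partner. Over all 12 libraries the highest value was 1.36 times the lowest for Rxra, 1.45 times for Rxrb and 9.36 times for Vdr. The genes were also steady between libraries of a group. Their biological coefficients of variation in edgeR were 18.2% for Vdr, 16.2% for Rxra and 15.3% for Rxrb, against a median of 26.7% over all genes tested.

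Since the receptor binds DNA with an RXR, Vdr counts were also set against the sum of Rxra and Rxrb counts within each library, a ratio that library scaling does not touch. As the counts are not scaled by length, only its change between groups can be read. The ratio was 0.362, 0.484 and 0.424 in the control libraries. It was 2.42, 2.64 and 2.25 with 25(OH)D, 1.93, 2.08 and 2.09 with 25(OH)D + BGP, and 2.26, 2.60 and 2.72 with 25(OH)D + ZK191784. Every library with 25(OH)D thus had a ratio several times that of any control. Each 25(OH)D + BGP library lay below all of those with 25(OH)D alone or with ZK191784.

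The log2 ratio was higher by 2.53 with 25(OH)D than in control, which is 5.79-fold. It was higher than control by 2.27 with 25(OH)D + BGP and by 2.58 with 25(OH)D + ZK191784. These 3 differences each had p = 0.1 in a two-sided exact permutation test, the smallest that 3 libraries against 3 can give (adjusted p = 0.12 over 6 comparisons), so the design cannot reach 0.05. With BGP the log2 ratio was lower than with 25(OH)D alone by 0.26 (0.835-fold; exact permutation p = 0.1), and with ZK191784 it differed by 0.05 (exact permutation p = 0.7). Within the partner pool Rxra gave 55.7 to 62.7% of the summed Rxra and Rxrb counts in single libraries, with group means of 59.0% in control, 56.6% with 25(OH)D, 59.5% with 25(OH)D + BGP and 60.3% with 25(OH)D + ZK191784, and the exact permutation p of the 6 differences ran from 0.2 to 0.7.

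**Figure D3:**
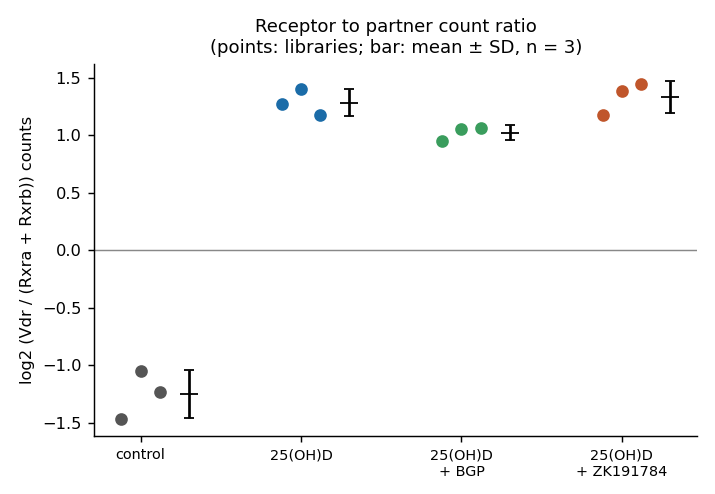
Log2 ratio of Vdr counts to the sum of Rxra and Rxrb counts in each of the 12 libraries (points), with the mean ± SD of 3 libraries beside them. The control libraries lie between -1.47 and -1.05 and the 9 libraries with 25(OH)D between 0.95 and 1.44.

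Among the 25 tested nuclear receptor genes described here Vdr had the largest rise with 25(OH)D. Of 47 examined, these 25 passed the filter on low counts, and of the 22 beside Vdr, Rxra and Rxrb 1 rose and 2 fell, where 8.68% of all genes tested were called. Nr2f2, which encodes the orphan receptor COUP-TFII, rose by 1.19 ± 0.26 (edgeR adjusted p = 0.0121). That call was lost without 25(OH)D library 1 (adjusted p = 0.0559), control library 1 (0.0605) or control library 2 (0.0681). Thra, the thyroid hormone receptor gene whose product also pairs with RXR, fell from 586.5 ± 123 to 318.6 ± 62.6 CPM (edgeR adjusted p = 0.00726). It overlaps Nr1d1 on the other strand, and reads of the pair may not be separable here. Rora, a receptor that binds DNA alone, fell by 0.57 on the log2 scale (SE 0.12, edgeR adjusted p = 0.00733). Both falls missed the threshold when the 2 groups were fitted alone (adjusted p = 0.0592 for Thra and 0.0652 for Rora).

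Thra was the only 1 of 10 tested genes of other RXR partner receptors called with 25(OH)D. That share of 10% is near the 8.68% of all genes tested. The median log2 difference of these 10 was 0.08, against -0.05 over all genes tested. The retinoic acid receptor genes Rara and Rarg differed by 0.25 and 0.61 (edgeR adjusted p = 0.630 and 0.0579). With ZK191784, where the Vdr difference was -0.06, Thra was at 518.5 ± 47.5 CPM. Its difference from 25(OH)D alone was 0.70 ± 0.18 (edgeR adjusted p = 0.0521), and neither that nor its difference from control passed the test. Thra was called higher with ZK191784 than with BGP, by 1.03 (edgeR adjusted p = 0.00649). With 25(OH)D + BGP it differed from control by -1.21 (edgeR adjusted p = 0.000873). Both calls held in all 13 alternative analyses.

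**Figure D4:**
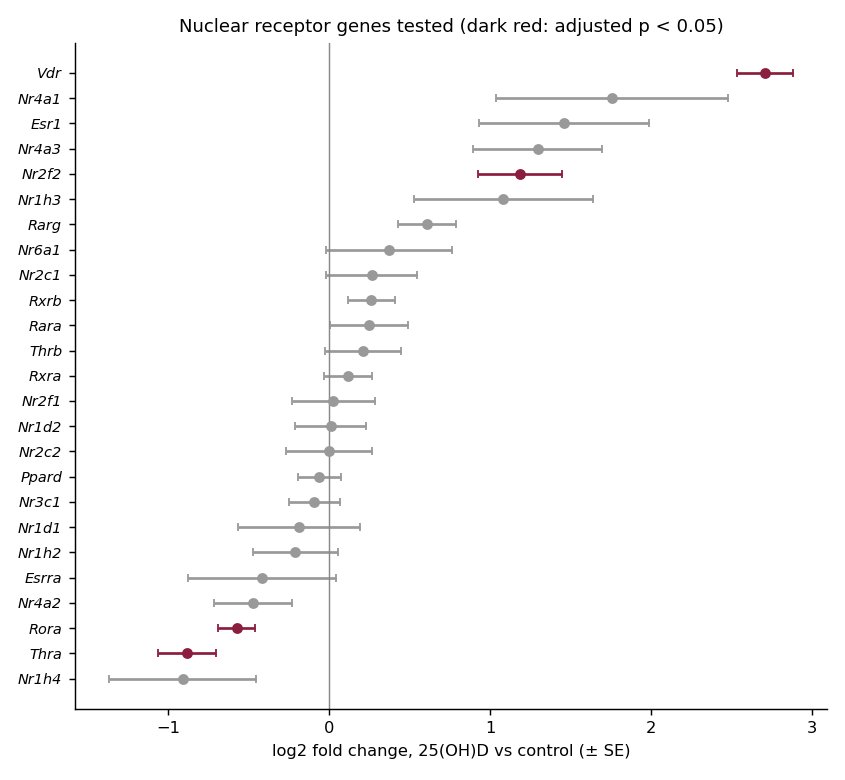
Log2 fold change ± SE with 25(OH)D against control for the 25 tested nuclear receptor genes described here, in order of size, with genes at an adjusted p under 0.05 in dark red. Vdr (2.71) stands at the top, Rxrb and Rxra are numbers 10 and 13, and Thra (-0.88) and Rora (-0.57) are the called falls.

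Genes whose products act with the receptor on chromatin were read against the 4.76% of all genes tested that were called higher with 25(OH)D and the 3.93% called lower. Of 22 tested coactivator genes 1 rose and 0 fell, with a median log2 difference of -0.03. It was Baz1b, part of a chromatin remodelling complex that works with the receptor, and its small rise of 0.42 ± 0.11 (edgeR adjusted p = 0.0250) held in 5 of 13 alternative analyses. It was lost without any 1 of the 6 libraries other than control library 3 (adjusted p = 0.0538 to 0.0938). Of 13 corepressor genes 2 rose and 0 fell. Ncor1, the nuclear receptor corepressor, rose by 0.81 ± 0.17 (edgeR adjusted p = 0.00962), which did not pass when control library 1 was left out (adjusted p = 0.0516). Ncor1 shares exons with neighbours on the other strand. Tbl1x, of the same complex, rose by 0.55 ± 0.16 (edgeR adjusted p = 0.0491), which held in 5 of 13 alternatives. It was lost without any 1 of the 6 libraries other than 25(OH)D library 3 (adjusted p = 0.0640 to 0.203).

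Some genes known to act on Vdr itself did move. Of 11 tested, 1 rose and 3 fell with 25(OH)D, where 4.76% of all genes were called higher and 3.93% lower. Cebpb, a transcription factor that binds enhancers of Vdr, rose from 439.2 ± 29.9 to 1494 ± 172 CPM (log2 1.77 ± 0.14, edgeR adjusted p = 4.68e-06). Runx2, the osteoblast transcription factor, which also binds there, fell from 174.9 ± 23.7 to 83.2 ± 12.1 CPM (log2 -1.07, edgeR adjusted p = 0.000767). Ezh2, a histone methyltransferase of gene silencing, fell by 1.05 (SE 0.15, edgeR adjusted p = 0.000669), and Dnmt1, the maintenance DNA methyltransferase, fell by 0.80 (SE 0.15, edgeR adjusted p = 0.00487). Nr3c1, the receptor of the dexamethasone in the medium, differed by -0.09 ± 0.16. Sp1 differed by 0.08 ± 0.16.

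With ZK191784 2 of the 11 tested regulators were called against 25(OH)D alone, 1 higher and 1 lower. Over all genes tested 1.42% were called higher in that comparison and 2.11% lower. Vdr was not called there, with a log2 difference of -0.06 ± 0.16. Cebpb stood at 696 ± 62.8 CPM, a fall of 1.10 (SE 0.13, edgeR adjusted p = 0.000523). Runx2 stood at 159.0 ± 19.4 CPM, a rise of 0.93 ± 0.16 (edgeR adjusted p = 0.00451), and its difference from control was -0.14 ± 0.15. With 25(OH)D + BGP the 4 called regulators had the direction against control that they had with 25(OH)D alone. Cebpb rose by 1.45, Runx2 fell by 1.32, and Ezh2 fell by 1.25 (edgeR adjusted p = 2.47e-05, 0.000184 and 0.000190). Dnmt1 fell by 0.70 (SE 0.15, edgeR adjusted p = 0.0114), which held in 9 of 13 alternatives and was lost without 25(OH)D + BGP library 2 (adjusted p = 0.0588) or library 3 (0.0629). These comparisons share the control libraries.

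On the ligand side, 5 of 8 tested genes of vitamin D uptake and metabolism rose with 25(OH)D and 0 fell, where 4.76% of all genes were called higher and 3.93% lower. The 5 include Cyp24a1, which passed the filter only through the groups where it was high, and without it they are 4 of 7. The median log2 difference of the 8 was 0.85, against -0.05 over all genes tested. The count of 5 became 3 without 25(OH)D library 1, control library 1 or control library 2. Dhcr7, whose enzyme turns the vitamin D precursor into cholesterol, rose from 20.0 ± 3.37 to 147.5 ± 16.0 CPM (log2 2.88 ± 0.18, edgeR adjusted p = 6.31e-07). The electron donors of cytochrome P450 enzymes followed, Fdxr with a rise of 2.17 ± 0.16 and Por with one of 1.03 ± 0.14 (edgeR adjusted p = 3.73e-06 and 0.000527). Cyp24a1, the enzyme that breaks down vitamin D hormones, had 0 counts in control, 40 with 25(OH)D, 41 with 25(OH)D + BGP and 3 with 25(OH)D + ZK191784, summed over 3 libraries. These counts are given as a description, with no test. Dab2, an adaptor of the uptake receptors, rose by 0.66 ± 0.18 (edgeR adjusted p = 0.0377), which held in 6 of 13 and was lost without library 1 or 2 of either group (0.125 to 0.168). The 1-alpha-hydroxylase gene Cyp27b1, which makes the active hormone, had 4, 6, 4 and 4 counts in the 4 groups and was not tested.

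In the same list 4 genes fell when ZK191784 was added, beside a Vdr difference of -0.06 ± 0.16. Against 25(OH)D alone 0 of the 8 rose and 4 fell, where 1.42% of all genes were called higher and 2.11% lower. The 4 became 1 or 2 without any 1 of the 6 libraries other than 25(OH)D library 3, without which they were 5. Dhcr7 stood at 34.9 ± 3.54 CPM, a fall of 2.08 (SE 0.17, edgeR adjusted p = 2.54e-05) that held in all 13 alternatives. Dab2 fell by 0.96 and Por fell by 0.70 (edgeR adjusted p = 0.00932 and 0.0152), which held in 11 and 7 of 13. The call of Dab2 was lost without 25(OH)D library 1 (0.0513) or 25(OH)D + ZK191784 library 3 (0.0572). That of Por was lost without any 1 of the 6 libraries other than 25(OH)D library 3 (0.0573 to 0.0807). Fdxr fell by 0.72 (SE 0.16, edgeR adjusted p = 0.0217), which held in 7 of 13 and was likewise lost without any 1 of the 6 libraries other than 25(OH)D library 3 (0.0593 to 0.133). Against control Fdxr was still higher with 25(OH)D + ZK191784, by 1.46 ± 0.16 (edgeR adjusted p = 0.00101).

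The receptor's known target genes moved both ways. Of 19 tested, 7 rose and 6 fell with 25(OH)D, where 4.76% of all genes were called higher and 3.93% lower. The 7 include Cyp24a1, and without it they are 6 of 18. Cebpb and Runx2, described above among the regulators of Vdr, are in this list too. Their calls are therefore counted in both lists, also where ZK191784 was added. The median log2 difference of the 19 was 0.02. Spp1, the gene of the matrix protein osteopontin and a classical target, rose from 3395 ± 401 to 51551 ± 5707 CPM. Igfbp5, which encodes a binding protein of insulin-like growth factors, rose from 23.4 ± 13.6 to 2332 ± 740 CPM. Ibsp, the gene of bone sialoprotein, fell from 13675 ± 5662 to 92.7 ± 35.5 CPM, and the transcription factor gene Klf4 fell from 532.4 ± 99.4 to 74.8 ± 7.99 CPM. All 4 were called in each of the 13 alternatives.

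Of the same 19, 6 rose and 4 fell when ZK191784 was added to 25(OH)D, where 1.42% of all genes were called higher and 2.11% lower. The 6 became 3 or 4 when any 1 of the 6 libraries was left out, and the 4 became 3 to 5. Spp1 fell by 2.22 (SE 0.14) to 11082 ± 493 CPM and Igfbp5 fell by 3.66 (SE 0.43), while Ibsp rose by 5.65 ± 0.40 (edgeR adjusted p = 4.00e-06, 0.000449 and 9.35e-06). These moves ran toward the control level, and the Vdr value beside them was -0.06 ± 0.16. Against control, Spp1 remained higher by 1.71 ± 0.14 and Klf4 differed by -1.88 ± 0.17 with 25(OH)D + ZK191784 (edgeR adjusted p = 6.93e-05 and 0.000179). Igfbp5 was higher than control by 2.98 ± 0.43 (edgeR adjusted p = 0.00622), which did not pass when control library 2 was left out (adjusted p = 0.0575).

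Retinoid genes, which govern the ligand of the retinoic acid receptors that also use RXR, gave a mixed picture. Of 7 tested, 2 rose and 1 fell with 25(OH)D, where 4.76% of all genes were called higher and 3.93% lower. Dhrs3, which returns retinal to retinol, rose 2.60-fold, and Crabp2, which carries retinoic acid to its receptors, rose 3.38-fold (edgeR adjusted p = 0.00204 and 0.00556). The 1 gene called lower was Fabp5, another carrier, with 82 counts in control, 9 with 25(OH)D, 7 with 25(OH)D + BGP and 37 with 25(OH)D + ZK191784, summed over 3 libraries. It passed the filter through the control libraries, where it was high, and its call was lost without any 1 of the 6 libraries, so the counts are given as a description. Cyp26b1, which breaks down retinoic acid, rose against control with 25(OH)D + BGP by 1.13 ± 0.27 and with 25(OH)D + ZK191784 by 1.49 ± 0.27 (edgeR adjusted p = 0.0207 and 0.0269), in 9 and 7 of 13 alternatives. Both calls were lost without control library 1 or 2, the first also without 25(OH)D + BGP library 3 and the second without 25(OH)D + ZK191784 library 1 or 2 (0.0853 to 0.156). Crabp2 was the 1 of the 7 called with ZK191784 against 25(OH)D alone, where 3.53% of all genes were called. Its difference was -1.39 ± 0.34 (edgeR adjusted p = 0.0390). That call held in 6 of 13 alternatives, and in 1 of the 6 fits that left out a library.

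How far Vdr stood from the other rising genes was read in a comparison that uses neither the control libraries nor those with 25(OH)D alone, though all 12 libraries share the filter and the estimate of spread. The 685 genes called higher with 25(OH)D than in control were compared between 25(OH)D + ZK191784 and 25(OH)D + BGP, a reading chosen after the values were seen. Of these genes 658 (96.1%) were lower with ZK191784, 220 of them by edgeR call, and the median log2 difference was -0.74, with quartiles of -1.26 and -0.37. Over all genes tested the median was 0.02. Genes called in either direction in this second comparison numbered 468, and 234 to 379 when 1 library was left out. Vdr had 0.24, and 9 of the 685 genes (1.31%) lay above it. Fap, which encodes a fibroblast surface protease, was the 1 gene called higher, by 1.29 ± 0.21 (edgeR adjusted p = 0.00489).

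**Figure D5:**
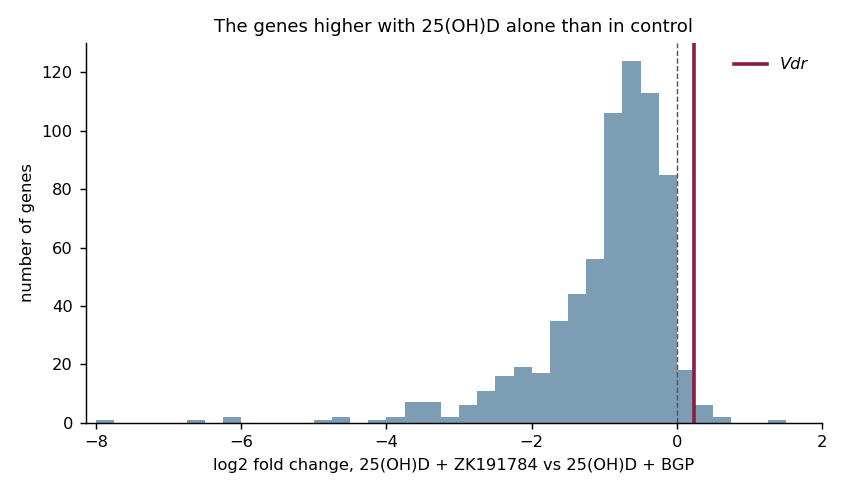
Log2 fold change between 25(OH)D + ZK191784 and 25(OH)D + BGP for the 685 genes called higher with 25(OH)D alone than in control, as numbers of genes per bin, with Vdr as the vertical line at 0.24. The median of the genes is -0.74 and 658 of them lie below 0.

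The genes most like Vdr were sought by the root mean square distance between their 3 log2 fold changes against control and those of Vdr, over 8704 genes. The 3 changes share the control libraries, so the distance is a description. The 6 nearest were Dpep1 (0.50), Sesn1 (0.51), Klhl33 (0.56), Ddit4 (0.58), Pim3 (0.58) and Repin1 (0.61). Dpep1 encodes a membrane dipeptidase, Sesn1 a sestrin of the stress response, and Ddit4 an inhibitor of mTOR signalling. Their log2 differences from control with 25(OH)D + ZK191784 were 1.78, 2.02, 2.32, 1.91, 1.64 and 1.64 in that order, all below the 2.64 of Vdr. Those of Ddit4, Pim3 and Repin1 did not pass the test (edgeR adjusted p = 0.0698, 0.789 and 0.256). Dpep1, Sesn1 and Klhl33 fell with ZK191784 against 25(OH)D alone (edgeR adjusted p = 0.0158, 0.0215 and 0.0229). Ddit4, Pim3 and Repin1 differed by -0.21, -1.02 and -0.77 in that comparison, beside -0.06 for Vdr. None of them passed the test there (edgeR adjusted p = 0.957, 0.784 and 0.666). Pim3 did not pass the test with 25(OH)D (edgeR adjusted p = 0.0677).

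The libraries also differed within groups along the balance between ribosomal protein genes and their pseudogenes or predicted genes. The first component of all differences within groups held 61.8% of their variance, and its relation to this balance was not tested. The group means of that log2 balance lay between -1.34 ± 0.67 in control and -1.07 ± 0.60 with 25(OH)D + BGP (SD, n = 3). With the balance as a covariate the rise of Vdr was 2.68 (edgeR adjusted p = 1.51e-18), and the differences of Rxra and Rxrb were 0.09 and 0.25, neither of them called.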

How the data were processed

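The deposited table held whole-number counts per gene symbol for 12 QuantSeq 3' mRNA-seq libraries. Per the submitters' processing notes the genome was mm39 and the tools were STAR 2.7.9a, Subread 2.0.3 with featureCounts, and DESeq2 1.38.2, whose role they do not give. Nothing used here gives the strand setting, annotation or filters, so overlapping genes cannot be told apart, and Bglap and Bglap2, near-identical copies, are uncertain. Of 56691 genes 20212 had 0 counts throughout, and 882 entries repeated a symbol and were kept apart.

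The filter filterByExpr (min.count 10, min.total.count 15) kept 14394 genes, which hold 99.4% of counts. TMM scaled the libraries, and 1 quasi-likelihood model with a coefficient per group and no block was fitted to all 12 libraries in edgeR 4.0.16 (limma 3.58.1, R 4.3.3). Calls are at a Benjamini-Hochberg adjusted p under 0.05 over all genes tested. SEs are approximate, from the F statistic. Floors at 3 counts cover counting error only. The 12 replicate pairs within groups all differed by more than sampling noise. The fit was tested on simulated data.

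The genes and 8 lists were chosen with earlier results of these data known. Named genes were the 4 members, from each list up to 4 called genes of smallest p with 25(OH)D against control and up to 3 in each other comparison, and the 6 genes most like Vdr (average log2 CPM at least 3, no predicted, clone or repeated symbol). Rara, Rarg, Nr3c1, Sp1, Dab2 with 25(OH)D, Fdxr with ZK191784 against 25(OH)D, Dnmt1 with 25(OH)D + BGP, Cyp27b1, Myog, Fap, Ptprc and Adgre1 were named after their values were seen. So were the markers Sparc, Col1a1, Col1a2, Alpl, Pdpn, Dmp1 and Sox9. Lists are described by counts and medians, with no set test. Promoters are RefSeq sequence on GRCm38.p6, and 125 of 154 list genes matched. 1 list gene is not reported here. Plots used matplotlib 3.10.9 (Python 3.11.15). Alternatives were RLE scaling, DESeq2 1.42.0, other filters, a replicate block, the 2 groups alone, a library covariate, each library left out, and either partner alone in the ratio. Their use on the lists was added after seeing the data.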

Additional observations from a re-analysis of the deposited data

How the results depend on the processing

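The 3 rises of Vdr against control passed in all 13 alternatives, at log2 2.58 to 2.81 with 25(OH)D (highest adjusted p = 0.000503), 2.29 to 2.53 with 25(OH)D + BGP (0.000597) and 2.53 to 2.76 with 25(OH)D + ZK191784 (0.00297), and Rxra and Rxrb passed in none of theirs. With a replicate block the first rise was 2.71 (edgeR adjusted p = 8.49e-06), and the block changed no call of these genes. The replicate numbers were not taken as pairs, since 4 of 18 same-number pairs correlated above 0.1 and 2 of 12 libraries correlated best with their own number. The direction turned only for differences near 0 that were never called. Rxra with 25(OH)D + ZK191784 against 25(OH)D was 0.00409 with a filter at a CPM of 2, 0.0161 with no filter, and 0.0142 with the 2 groups alone. The log2 ratio in that comparison was -0.0409 over Rxra alone. Leaving out 1 library gave -0.115 to 0.0926 for Rxra, -0.167 to 0.0896 for Vdr and -0.0046 to 0.13 for the ratio in that comparison. It gave -0.0496 to 0.132 for Rxra with 25(OH)D + BGP against 25(OH)D, -0.166 to 0.0528 for Rxra with ZK191784 against BGP, and -0.0316 to 0.119 for Rxrb with 25(OH)D + ZK191784 against control. The cause was not tested.

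Counts over all genes moved more. With 25(OH)D against control 1250 genes were called, 763 with the 2 groups alone, 813 without 25(OH)D library 2 and 2850 with the covariate. With 25(OH)D + BGP against control they were 1187, 712 with the 2 groups alone and 2680 with the covariate, and against 25(OH)D 0 and 6 with the covariate. With ZK191784 against 25(OH)D they were 508, 797 by DESeq2, 1638 with the covariate, 334 with the block and 269 to 428 without 1 library. Against BGP they were 468, 760, 1599, 304 and 234 to 379 in that order, and against control 104, 265, 671, 56 and 34 to 119, with 220 without a filter and 42 with the 2 groups alone.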

Other observations

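Ptprc, the gene of the leukocyte surface protein CD45, had mean levels of 241.6 CPM in control, 181.7 with 25(OH)D, 204.0 with 25(OH)D + BGP and 218.8 with 25(OH)D + ZK191784. The macrophage gene Adgre1 was at 0.603 to 2.12 CPM in the same groups, and the 6 blood and osteoclast markers summed to between 258.9 and 443.6 CPM over all libraries. These levels are not used to compare 1 gene with another, and their source was not tested.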
